A study of Homo sapiens with 8 samples.

Results

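The 10 heat shock chaperone genes HSPA1A, HSPA1B, HSPA1L, HSPA2, HSPA6, HSPA8, DNAJB1, HSPB1, HSPH1, and HSP90AA1 were followed in 8 stable cell lines, out of 27777 genes and unnamed transcripts counted on the array. They were chosen by measured signals on these same arrays, HSPA1A for MBD-TET1-CDwt and HSPA6 for TET1-CDwt against empty vector, with their chaperone relatives added. Their values are therefore given as a description, and no p-value is attached to any of them. A probe was assigned to a gene through the RefSeq transcript in the array's annotation, which gave 15 of the 34127 probes.

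The cells were HEK293T, a human embryonic kidney line, stably transfected with empty pcDNA6/myc-His vector (clones #1 and #2), the catalytic domain of TET1 alone (TET1-CDwt, clones #2 and #5), a fusion of that domain with the methyl-CpG-binding part of MBD2 (MBD-TET1-CDwt, clones #3 and #10), or that fusion with an inactive catalytic domain (MBD-TET1-CDmut, clones #9 and #10). TET1 oxidizes 5-methylcytosine, and the comparison between the last 2 constructs asks what depends on that activity. Transfectants had been selected with blasticidin S. Each array held RNA of 1 clone, so every group had 2 samples, and the spread within a group is the difference between independently isolated clones. Empty vector and TET1-CDwt lay on one slide and both MBD fusions on the other. A comparison across the slides cannot be told apart from a slide difference, while TET1-CDwt against empty vector and MBD-TET1-CDwt against MBD-TET1-CDmut were made within a slide.

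All levels below are log2 of the deposited processed intensity minus the 75th percentile of the array, so that 0 is the 75th percentile and 1 unit is 2-fold. The precision was limited by the number of arrays and by brightness. Of the spots of an array, 65.5% to 69.8% passed as well above background, and the lowest such probe lay between -6.01 and -5.51. The 7 markers listed for HEK293T, among them PAX2, LHX1, and VIM, were well above background on 8 arrays. Of 10 markers of other cell types, CD3E, PECAM1, ALB, MYH7, GFAP, and HBB were above it on none, whereas PTPRC, CD68, COL1A1, and EPCAM were above it on all 8 with at least 1 probe. NEFM, one of the HEK293T markers, was at 0.32 in MBD-TET1-CDwt #3 and between 2.29 and 3.23 elsewhere. EPCAM ranged from -4.46 to -0.23 and was highest in MBD-TET1-CDwt #10, and the part of either in the results was not tested. The 2 TET1 probes and the 2 MBD2 probes have no known position in the transgenes, so they check no construct.

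Heat shock proteins of the HSP70 family bind unfolded polypeptides in cycles of ATP hydrolysis. J-domain proteins such as DNAJB1 deliver the substrates, HSP110 proteins such as HSPH1 exchange the nucleotide, HSP90 proteins act later on near-native clients, and the small protein HSPB1 holds unfolded chains. Heat and other proteotoxic stress release the transcription factor HSF1 from chaperones, and HSF1 binds inverted repeats of the unit NGAAN, called heat shock elements, in the promoters of these genes. HSPA8 is the constitutive cytosolic HSP70, HSPA1A and HSPA1B are the major inducible pair, HSPA6 is strictly inducible and is absent from rodents, and HSPA2 and HSPA1L are best known from the testis.

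The 250 bases before the RefSeq start of 4 of these genes are shown because they hold heat shock element letters and belong to genes with which the results deal. Capitals mark these letters, searched on both strands, in which N is any base. For 2 units they are TTC-NN-GAA or GAA-NN-TTC, and for 3 units TTC-NN-GAA-NN-TTC or GAA-NN-TTC-NN-GAA, so that the shorter motif lies inside the longer one. HSPA1A lies at chr6:31815293-31815542 (plus strand), HSPA1B at chr6:31827488-31827737 (plus strand), HSPA6 at chr1:161524290-161524539 (plus strand), and the inner of 2 HSP90AA1 starts at chr14:102087045-102087294 (minus strand), all RefSeq on GRCh38.p14.
HSPA1A: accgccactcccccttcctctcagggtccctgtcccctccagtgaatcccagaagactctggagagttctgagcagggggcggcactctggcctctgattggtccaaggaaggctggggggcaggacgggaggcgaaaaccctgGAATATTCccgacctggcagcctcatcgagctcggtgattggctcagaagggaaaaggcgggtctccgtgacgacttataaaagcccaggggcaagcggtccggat
HSPA1B: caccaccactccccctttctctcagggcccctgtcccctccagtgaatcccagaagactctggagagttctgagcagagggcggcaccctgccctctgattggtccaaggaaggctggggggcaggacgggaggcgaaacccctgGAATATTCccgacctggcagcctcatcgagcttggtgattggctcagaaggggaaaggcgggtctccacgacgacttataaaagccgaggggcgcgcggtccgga
HSPA6: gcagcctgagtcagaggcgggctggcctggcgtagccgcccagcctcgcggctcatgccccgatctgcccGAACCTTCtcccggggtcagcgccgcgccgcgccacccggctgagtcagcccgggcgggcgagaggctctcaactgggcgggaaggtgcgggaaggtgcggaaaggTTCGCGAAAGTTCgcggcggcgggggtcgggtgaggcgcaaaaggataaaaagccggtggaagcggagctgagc
HSP90AA1: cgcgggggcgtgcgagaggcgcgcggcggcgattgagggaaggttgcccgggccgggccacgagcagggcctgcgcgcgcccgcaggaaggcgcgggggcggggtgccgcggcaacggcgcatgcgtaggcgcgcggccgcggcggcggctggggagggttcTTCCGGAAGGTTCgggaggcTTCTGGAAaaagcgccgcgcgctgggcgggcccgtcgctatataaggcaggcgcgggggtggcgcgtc

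In windows of 300 bases, which add 50 bases after the start, 2 units were found at 8 of the 10 genes. By window, they were in 9 of the 13 windows of these genes and in 13.5% of all 35116 windows. The 3-unit letters were found in 3 of the 13 windows, at HSPA6, HSPA8, and HSP90AA1, and in 0.490% of all windows. The windows of HSPA2 and HSPH1 held neither. HSPA1A and HSPA1B carry the same 2-unit letters, which begin at -106 and -105, and their windows were identical at 92.0% of 301 aligned positions. HSPA1L starts 260 bases from HSPA1A on the other strand, and their windows share 241 bases. The 2-unit letters in these shared bases are counted for both genes. CpG dinucleotides numbered 15 in the HSPA1A window, 18 at HSPA1B, 21 at HSPA2, and 33 at HSPA6, against a median of 14 over all windows.

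HSPA1A (chr6:31815543-31817942) had the widest range of the 15 probes, 8.87 on the log2 scale. Its level was -7.84 and -7.58 in the empty vector clones and -6.78 in TET1-CDwt #2, none of them well above background. It was -2.78 in TET1-CDwt #5, 1.03 in MBD-TET1-CDwt #3, -0.95 in MBD-TET1-CDwt #10, -4.80 in MBD-TET1-CDmut #9, and -5.10 in MBD-TET1-CDmut #10. Both MBD-TET1-CDwt clones were above every other clone, and TET1-CDwt #5 came next.

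The probe is printed in 10 spots, so the reading of each array could be checked within it. In MBD-TET1-CDwt #3 the spots ranged from 676 to 751 in linear intensity, and in MBD-TET1-CDwt #10 from 160 to 190. The TET1-CDwt #5 spots ranged from 58.8 to 80.9. In both MBD-TET1-CDmut clones the medians were 11.1 and 11.4, with 8 and 7 spots well above background, and in empty vector the medians were 1.41 over the 8 spots without an outlier flag and 2.45 over 10. The spots of the bright arrays did not overlap with those of any other array.

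**Figure D1:**
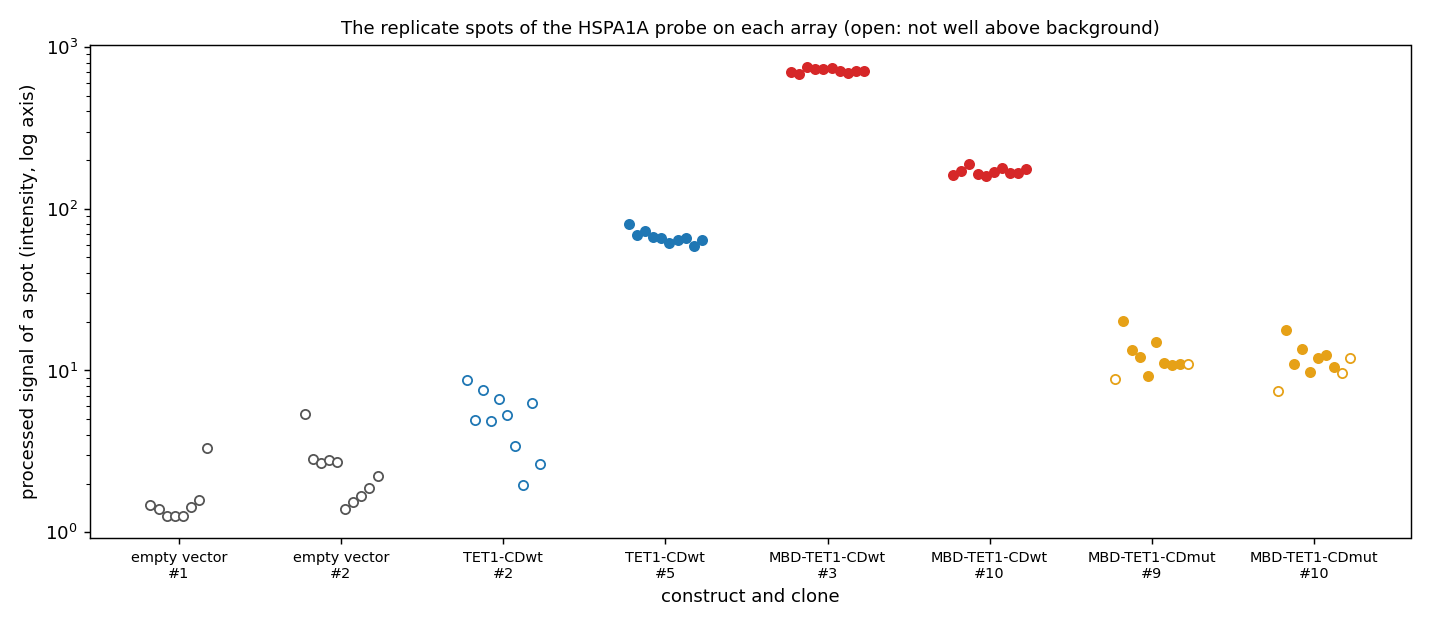
Processed intensity of each spot of the HSPA1A probe on the 8 arrays, on a log axis, with open circles for spots not well above background. The spots of MBD-TET1-CDwt #3 (median 711), MBD-TET1-CDwt #10 (168), and TET1-CDwt #5 (65.9) form separate levels above the other 5 arrays.

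Because empty vector gave no signal well above background, a fold against it is a lower bound, set by the lowest well-measured probe of those arrays. HSPA1A in MBD-TET1-CDwt exceeded empty vector at least 62.0-fold, with a log2 difference of the measured values of 7.76 (limma SE 1.21, n = 2 clones each). It exceeded MBD-TET1-CDmut 31.8-fold, within the slide (4.99, SE 1.21). Clone by clone, MBD-TET1-CDwt #3 was at least 123-fold, MBD-TET1-CDwt #10 at least 31.3-fold, TET1-CDwt #5 at least 8.78-fold, and the MBD-TET1-CDmut clones at least 2.16-fold and 1.76-fold above empty vector. A normexp background correction in which a few aberrant local backgrounds were replaced, which compresses dim signals, gave log2 differences of 2.84 and 2.63 in place of 7.76 and 4.99. HSPA1A and HSPA1B are near-identical over their coding sequence, and how far each probe reads the other gene's transcript was not tested. In both empty vector clones the HSPA1A probe was not well above background, while the HSPA1B probe was at 3.19 and 3.20.

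The HSPA1B probe (chr6:31827738-31830254 for the gene) was bright on all 8 arrays and followed the clones rather than the constructs. Its level was 3.19 and 3.20 in empty vector, 3.02 and 4.79 in TET1-CDwt #2 and #5, 5.20 and 2.37 in MBD-TET1-CDwt #3 and #10, and 3.71 and 3.04 in MBD-TET1-CDmut #9 and #10. The highest and the lowest of the 8 values thus belonged to the same construct. MBD-TET1-CDwt and empty vector overlapped, with a log2 difference of 0.59 (SE 0.93). HSPA1L (chr6:31809619-31815283), their neighbor on the other strand, stayed between -5.38 and -4.50, a range of 0.88.

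HSPA2 (chr14:64535905-64543237) was ordered by construct. Its level was -4.29 and -4.09 in empty vector, -3.53 and -2.78 in TET1-CDwt #2 and #5, -2.05 and -0.92 in MBD-TET1-CDwt #3 and #10, and -2.75 and -3.13 in MBD-TET1-CDmut #9 and #10. All 6 clones with a construct were above both empty vector clones, and both MBD-TET1-CDwt clones were above all others. The MBD-TET1-CDwt mean exceeded empty vector 6.53-fold (log2 2.71, SE 0.41) and MBD-TET1-CDmut 2.75-fold (1.46, SE 0.41). TET1-CDwt and MBD-TET1-CDmut lay 2.05-fold and 2.38-fold above empty vector (1.03 and 1.25, SE 0.41 each), and these 2 constructs overlapped. With the replaced local backgrounds and normexp these 2 differences were 0.14 and 0.39 on the log2 scale, and that of MBD-TET1-CDwt was 1.29.

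HSPA6 (chr1:161524540-161526894) is read by 2 probes, which gave differences of unequal size. By the first probe it was at -5.62 and -4.23 in empty vector, -3.96 and 0.31 in TET1-CDwt #2 and #5, -4.66 and -5.26 in MBD-TET1-CDwt #3 and #10, and -2.28 and -2.70 in MBD-TET1-CDmut #9 and #10. Empty vector #1 and MBD-TET1-CDwt #10 were not well above background. By the second probe it was at -5.25 and -5.14 in empty vector, -5.29 and -2.71 in TET1-CDwt #2 and #5, -4.86 and -4.98 in MBD-TET1-CDwt, and -4.24 and -4.60 in MBD-TET1-CDmut. With both probes TET1-CDwt #5 was the highest array, both MBD-TET1-CDmut clones followed, and the MBD-TET1-CDwt clones lay near empty vector.

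By the first probe, with the dim arrays as measured and above the lowest well-measured level, HSPA6 exceeded empty vector 8.58-fold in TET1-CDwt (means of -1.82 and -4.92 on the log2 scale, SE of the difference 1.23) and 5.40-fold in MBD-TET1-CDmut (log2 2.43, SE 1.23). The MBD-TET1-CDwt mean was below that of MBD-TET1-CDmut 5.55-fold (-2.47, SE 1.23), within the slide. The second probe gave 2.29-fold, 1.71-fold, and 1.42-fold for the same comparisons (SE 0.72 each on the log2 scale), the first of them with overlapping clones. The normexp correction with replaced local backgrounds gave 1.19, 0.65, and -0.72 by the first probe. The TET1-CDwt difference was carried by 1 clone. Without TET1-CDwt #5 it was 0.97 by the first probe and -0.10 by the second, and without TET1-CDwt #2 it was 5.24 and 2.49. HSPA7, a near-identical pseudogene beside HSPA6, has no probe named here, so its share in the HSPA6 signal is unknown.

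**Figure D2:**
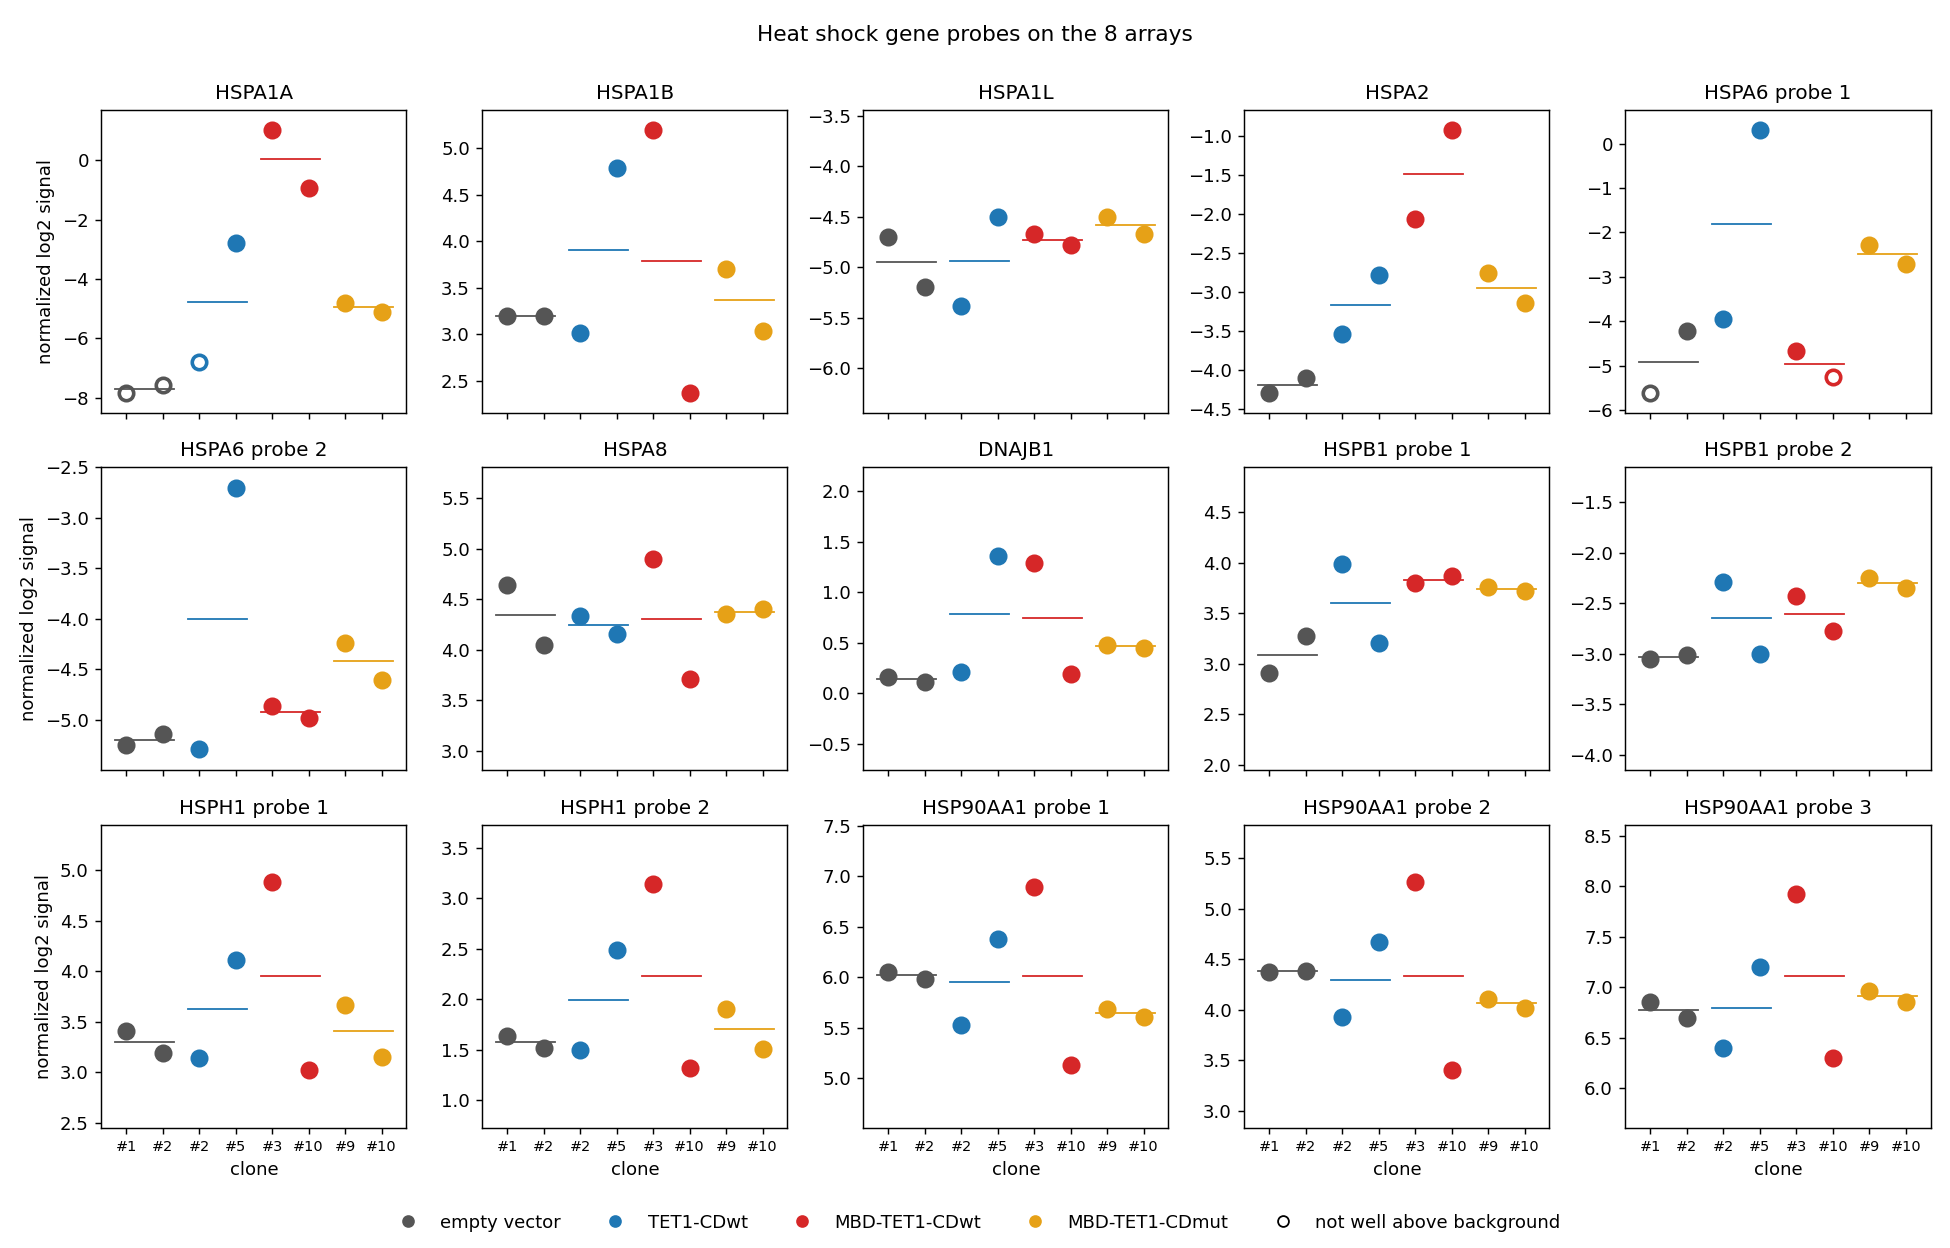
Normalized log2 signal of the 15 probes on the 8 arrays, 1 panel for each probe, with the construct in colour, a line at the mean of its 2 clones, and open circles where a signal was not well above background. Vertical scales differ between panels. HSPA1A and HSPA2 are highest in MBD-TET1-CDwt, HSPA6 in clone #5 of TET1-CDwt, and HSPH1 and HSP90AA1 in clone #3 of MBD-TET1-CDwt.

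The brighter chaperones differed little between constructs and more between clones. HSPA8 (chr11:123057489-123062462) ranged from 3.72 to 4.90, with group means between 4.25 and 4.38. DNAJB1 (chr19:14514769-14560391) was at 0.16 and 0.11 in empty vector, 0.21 and 1.36 in TET1-CDwt #2 and #5, 1.29 and 0.19 in MBD-TET1-CDwt #3 and #10, and 0.48 and 0.45 in MBD-TET1-CDmut. TET1-CDwt #5 and MBD-TET1-CDwt #3 stood above the other 6 clones, which lay between 0.11 and 0.48.

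HSPH1 (chr13:31134973-31162388) had the same order with both its probes. By the first probe it was at 3.41 and 3.19 in empty vector, 3.14 and 4.11 in TET1-CDwt #2 and #5, 4.88 and 3.03 in MBD-TET1-CDwt #3 and #10, and 3.66 and 3.15 in MBD-TET1-CDmut #9 and #10. HSP90AA1 (chr14:102080742-102139749), by its probe with 10 spots, was at 6.06 and 5.98 in empty vector, 5.53 and 6.38 in TET1-CDwt #2 and #5, 6.89 and 5.13 in MBD-TET1-CDwt #3 and #10, and 5.69 and 5.61 in MBD-TET1-CDmut. Its mean in MBD-TET1-CDwt differed from that in empty vector by -0.01 (SE 0.55), while the 2 clones behind that mean were the highest and the lowest of the 8. HSPB1 (chr7:76302673-76304292) went another way. Its first probe was at 2.91 and 3.27 in empty vector, 3.98 and 3.21 in TET1-CDwt #2 and #5, 3.80 and 3.87 in MBD-TET1-CDwt, and 3.76 and 3.72 in MBD-TET1-CDmut, so that both MBD fusions were above empty vector by 0.74 and 0.65 (SE 0.28 each), across slides.

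Counted at 2-fold, with a higher group well above background on both arrays and dim signals of the other group raised to the lowest well-measured level of their array, 2 of the 10 genes were higher and 0 lower in TET1-CDwt against empty vector (HSPA2 and HSPA6), beside 0.277% and 0.45% of all 27777 genes. In MBD-TET1-CDwt against empty vector 2 were higher (HSPA1A and HSPA2) and 0 lower, beside 0.95% and 0.778%. Against MBD-TET1-CDmut the same pair was higher and HSPA6 was lower, beside 1.01% and 0.839%. In MBD-TET1-CDmut against empty vector 2 were higher (HSPA2 and HSPA6) and 0 lower, beside 0.284% and 0.324%. At 5-fold the counts were 1 in TET1-CDwt (HSPA6, beside 0.0108% of all genes), 2 in MBD-TET1-CDwt against empty vector (HSPA1A and HSPA2, beside 0.234%), 1 higher and 1 lower against MBD-TET1-CDmut (HSPA1A and HSPA6, beside 0.176% and 0.0504%), and 1 in MBD-TET1-CDmut (HSPA6, beside 0.0288%). Since these contrasts chose the genes, nothing is read from the counts against those shares. Without TET1-CDwt #5, 0 of the 10 were 2-fold higher for that construct, beside 1.2% of all genes, and without TET1-CDwt #2, 5 were, beside 1.05%. Without MBD-TET1-CDwt #10, 6 were 2-fold higher than in empty vector, beside 2.17%, and 4 were higher than in MBD-TET1-CDmut, beside 2.29%. The share of all genes was larger in each of these settings as well.

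**Figure D3:**
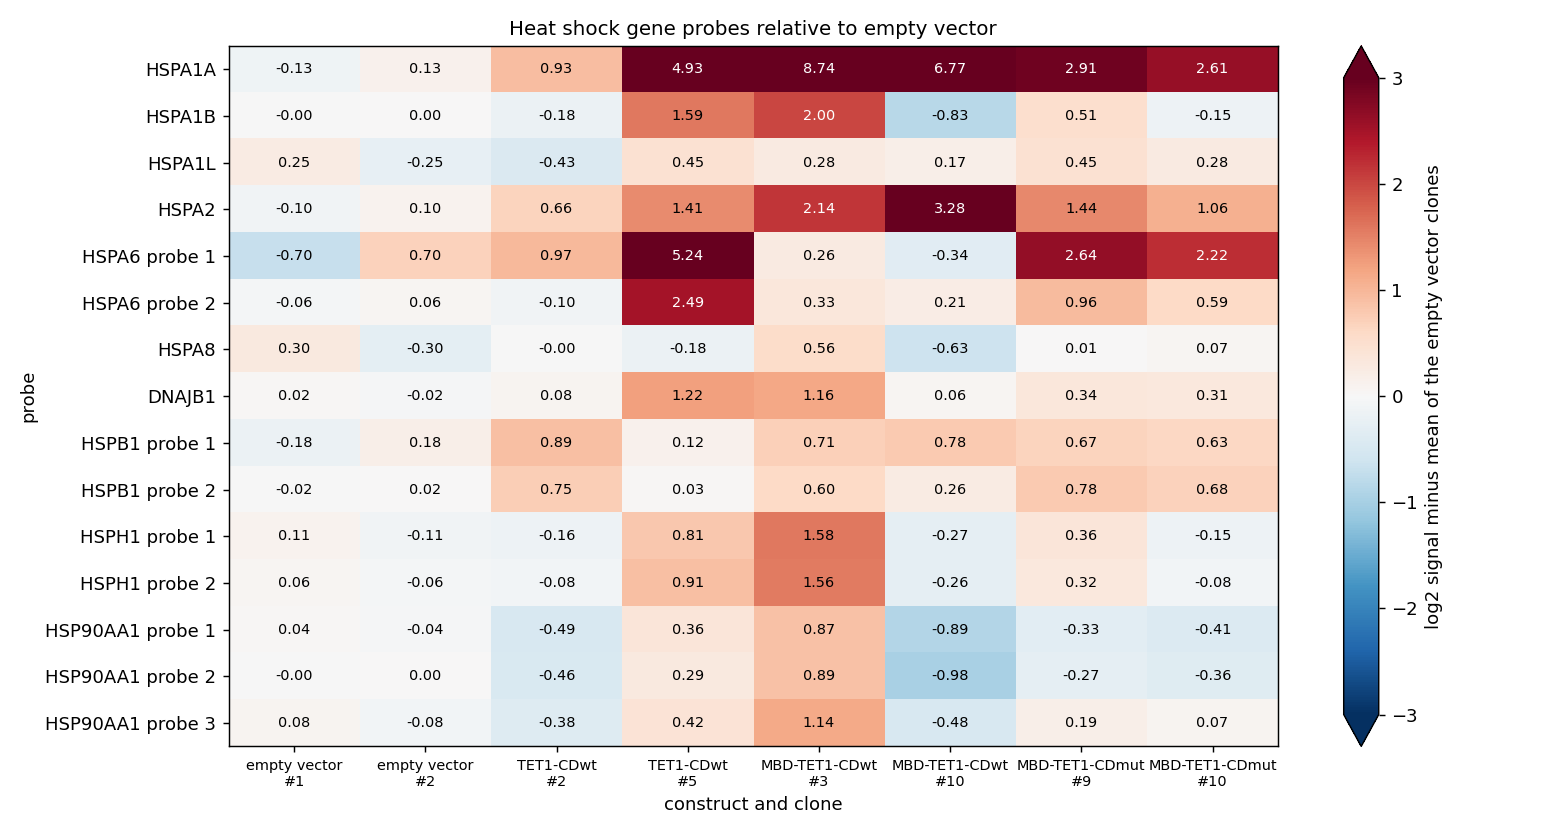
Log2 signal of each probe and array minus the mean of the empty vector clones for that probe, with the value in each cell and colours that saturate at 3 in both directions. TET1-CDwt #5 and MBD-TET1-CDwt #3 hold the 2 highest values for HSPA1B, DNAJB1, and HSPH1, whereas HSPA2 is positive in all 6 clones with a construct.

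The sister clones of a construct were then compared directly, a comparison chosen after the values were seen. In TET1-CDwt, clone #5 was at least 2-fold above clone #2 in 4 of the 10 genes, by 3.40-fold for HSPA1B, 19.3-fold for the first HSPA6 probe, 2.22-fold for DNAJB1, and at least 8.93-fold for HSPA1A, and below it in 0. Of all genes, 2.06% were higher in #5 and 2.7% were lower. HSPH1 was higher in #5 by 1.96-fold and HSP90AA1 by 0.85 on the log2 scale, each with the first probe, and HSPB1 was 1.71-fold higher in #2.

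In MBD-TET1-CDwt, clone #3 was at least 2-fold above clone #10 in 6 of the 10 genes, by 3.93-fold for HSPA1A, 7.11-fold for HSPA1B, 2.28-fold for HSPA8, 2.14-fold for DNAJB1, 3.61-fold for HSPH1, and 3.39-fold for HSP90AA1. HSPA2 was higher in #10, by 1.14 on the log2 scale. Of all genes, 3.16% were higher in #3 and 5.49% in #10. Of the 15 probes, 8 were highest in MBD-TET1-CDwt #3 and 7 were lowest in MBD-TET1-CDwt #10. HSPH1 and HSP90AA1 enter both counts with more than 1 probe. The share of all probes with these extremes was not computed, so nothing is read from the counts.

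In empty vector, the first HSPA6 probe was 2.63-fold higher in #2, with #1 as measured though not well above background. The second HSPA6 probe gave 1.08-fold. By the first probe 1 of the 10 genes was thus 2-fold higher in #2, and 0 were in #1, beside 3.77% and 1.3% of all genes. In MBD-TET1-CDmut, 0 of the 10 passed 2-fold in either direction, beside 0.533% and 0.767%. Each pair is 1 array against 1 array, so these differences have no replicate check. In these bulk RNA samples, a change in RNA per cell and a change in the share of cells that express a gene cannot be told apart.

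The other chaperone and stress genes were taken from 10 lists, of which 108 genes had a probe and 104 genes with 137 probes could be tested. limma (moderated test over all 8 arrays, Benjamini-Hochberg over 22530 probes) called 0 of these probes in every one of the 4 comparisons, beside 0% of all probes tested where TET1-CDwt or MBD-TET1-CDmut was set against empty vector. Of all probes, 0.115% were called between MBD-TET1-CDwt and empty vector and 0.102% between both fusions. At an unadjusted p under 0.05, 1 of the 137 probes passed for TET1-CDwt, 1 for the inactive fusion, and 3 for the active one, each against empty vector, beside 2.5%, 2.68%, and 6.6% of all probes tested. Between both fusions 10 passed (4 higher and 6 lower), beside 6.84%. Without MBD-TET1-CDwt #10, limma called 11 of the 137 for MBD-TET1-CDwt against empty vector and 18 between both fusions, most of them for genes of endoplasmic reticulum stress, while the shares of all probes called rose to 0.802% and 0.986%.

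DNAJA4, a J-domain partner of cytosolic HSP70, had the largest difference of its list between MBD-TET1-CDwt and empty vector. Its level was -5.87 and -5.83 in empty vector, -5.51 and -5.87 in TET1-CDwt, -3.23 and -3.75 in MBD-TET1-CDwt, and -6.73 and -5.90 in MBD-TET1-CDmut, so both MBD-TET1-CDwt clones stood apart from the others. Its signal was well above background on 4 of the 8 arrays, those of both MBD-TET1-CDwt clones, empty vector #2, and TET1-CDwt #2. On neither MBD-TET1-CDmut array was it well above background, so MBD-TET1-CDwt was higher than that construct at least 4.12-fold. Against empty vector, with #1 raised to its array's lowest well-measured level, it was 5.06-fold higher. As measured, dim signals included, the difference from empty vector was 2.36 (SE 0.32, limma adjusted p = 0.108) and that between both fusions 2.83 (SE 0.32, limma adjusted p = 0.0503), and neither passed. Over 15 alternatives the latter ranged from -0.19 with the normexp correction to 3.25 without MBD-TET1-CDmut #10 (limma adjusted p up to 0.976). The former ranged from -0.72 to 2.62 (limma adjusted p up to 0.828). With median scaling the latter was 2.83 (limma adjusted p = 0.0473), and without MBD-TET1-CDwt #10 it was 3.09. The DNAJA4 probe entered the main fit only through MBD-TET1-CDwt, the only construct with both arrays well above background. Its adjusted p-values therefore depend on the group where it is high, and nothing is read from them. NQO1, a quinone reductase of the oxidative stress response, was too dim to stand well above background in both empty vector clones, and MBD-TET1-CDwt was at least 2.01-fold higher (limma adjusted p = 0.679, and from 0.323 to 1 over the same alternatives, with differences from -1.07 to 1.09).

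The median log2 difference of the 29 probes for other HSF1-inducible genes against empty vector was 0.08 for TET1-CDwt, 0.10 for the active fusion, and 0.06 for the inactive one, beside -0.03, -0.02, and -0.02 over all probes tested. Between the active fusion and empty vector, the largest positive difference in this list was that of DNAJA1, another J-domain protein, at 0.62 (SE 0.53, limma adjusted p = 0.903), and the largest negative one that of HSPB8, a small heat shock protein, at -0.70 (SE 0.63, limma adjusted p = 0.907). For MBD-TET1-CDwt against empty vector, the median of the chaperonins was 0.15, with TCP1 at 0.52 and CCT6B at -0.36, and that of the co-chaperones was 0.03, with CHORDC1 at 0.40 and SIL1 at -0.49. It was 0.11 for other HSP70 and HSP110 genes, with HSPA12B at 0.67 and HYOU1 at -0.85, and -0.36 for other HSP90 genes, with HSP90AB1, the constitutive cytosolic form, at -0.13. It was -0.08 for J-domain partners, with DNAJC12 at -0.63, -0.24 for other small heat shock proteins, with HSPB3 at 0.09, 0.01 for heat shock factors, with HSBP1 at 0.40, and -0.04 for oxidative stress genes, with HMOX1 at -0.28. These lists share members. The 2 MBD-TET1-CDwt clones gave different values, and 8 of the 13 genes named with the active fusion here had opposite signs with only #10 or only #3 in the group. HSPA12B was at 2.08 without #3 and -0.73 without #10, HYOU1 at 0.27 and -1.96, DNAJA1 at -0.26 and 1.51, and CHORDC1 at -0.79 and 1.58. The median turned sign in the same way for the chaperonins (-0.22 and 0.58), the co-chaperones (-0.32 and 0.19), the HSF1-inducible genes (-0.26 and 0.39), and the oxidative stress genes (-0.19 and 0.29). For HSF1-inducible genes in TET1-CDwt it was 0.28 without #2 and -0.08 without #5. Leaving out an empty vector clone also turned the sign for the co-chaperones (-0.02 without #2), the heat shock factors (-0.10 without #2), and the oxidative stress genes (0.03 without #2), and it moved the other HSP90 median to -0.08 without #1 and -0.63 without #2. No direction is read from these medians. HSF1 itself was flat with its 2 bright probes, between 4.79 and 5.05 by the first and between 4.69 and 4.90 by the second. HSF2 lay between 2.52 and 2.88.

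Genes of endoplasmic reticulum stress, which serve folding in the secretory pathway, had a median of -0.64 over 32 probes for MBD-TET1-CDwt against empty vector and -0.80 between both fusions, and 1 probe of the 32 was positive in each. ATF6, a sensor of that stress, was at 0.09. The shift was carried by 1 clone. Without MBD-TET1-CDwt #3 the medians were 0.14 and -0.02, and without MBD-TET1-CDwt #10 they were -1.31 and -1.57. DDIT3, a transcription factor of that response (-1.83, SE 0.79, limma adjusted p = 0.772), was at 1.35 and 0.78 in empty vector, -2.18 and 0.64 in MBD-TET1-CDwt #3 and #10, and 1.39 and 1.73 in MBD-TET1-CDmut. HSP90B1, the HSP90 of the endoplasmic reticulum, was 0.76 and 3.37 in MBD-TET1-CDwt #3 and #10 by its second probe and between 3.03 and 3.53 elsewhere.

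The 2 groups of stress genes were split in opposite directions between the MBD-TET1-CDwt clones. Of 25 genes of endoplasmic reticulum stress with a probe, 20 were at least 2-fold higher in #10 and 0 in #3, beside 5.49% and 3.16% of all genes. Among the 20 were HSPA5, the HSP70 of that compartment, by 3.35 on the log2 scale, PDIA4 by 3.68, and HERPUD1 by 2.43. Of 21 other HSF1-inducible genes, 9 were at least 2-fold higher in #3 and 0 in #10, beside 3.16% and 5.49% of all genes. Among the 9 were CHORDC1, STIP1, AHSA1, BAG3, and DNAJA1. The median difference #10 minus #3 was 1.52 over the former and -0.69 over the latter, beside -0.03 over all probes tested. Between TET1-CDwt #5 and #2, 6 of the 108 genes were 2-fold higher in #5 (HSPB8, CRYAB, HSPB3, HMOX1, ATF3, and SESN2) and 0 in #2. Of all genes, 2.06% were higher in #5 and 2.7% in #2. HSPB8 was at 2.05 and HMOX1, the inducible haem oxygenase, at 2.90. Between the empty vector clones, 1 of the 108 genes (GCLM) was 2-fold higher in #2 and 0 in #1, beside 3.77% and 1.3% of all genes. Between the MBD-TET1-CDmut clones, 0 were 2-fold higher and 1 (CCT6B) was lower in #10, beside 0.533% and 0.767%. Nothing is read from these single genes.

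**Figure D4:**
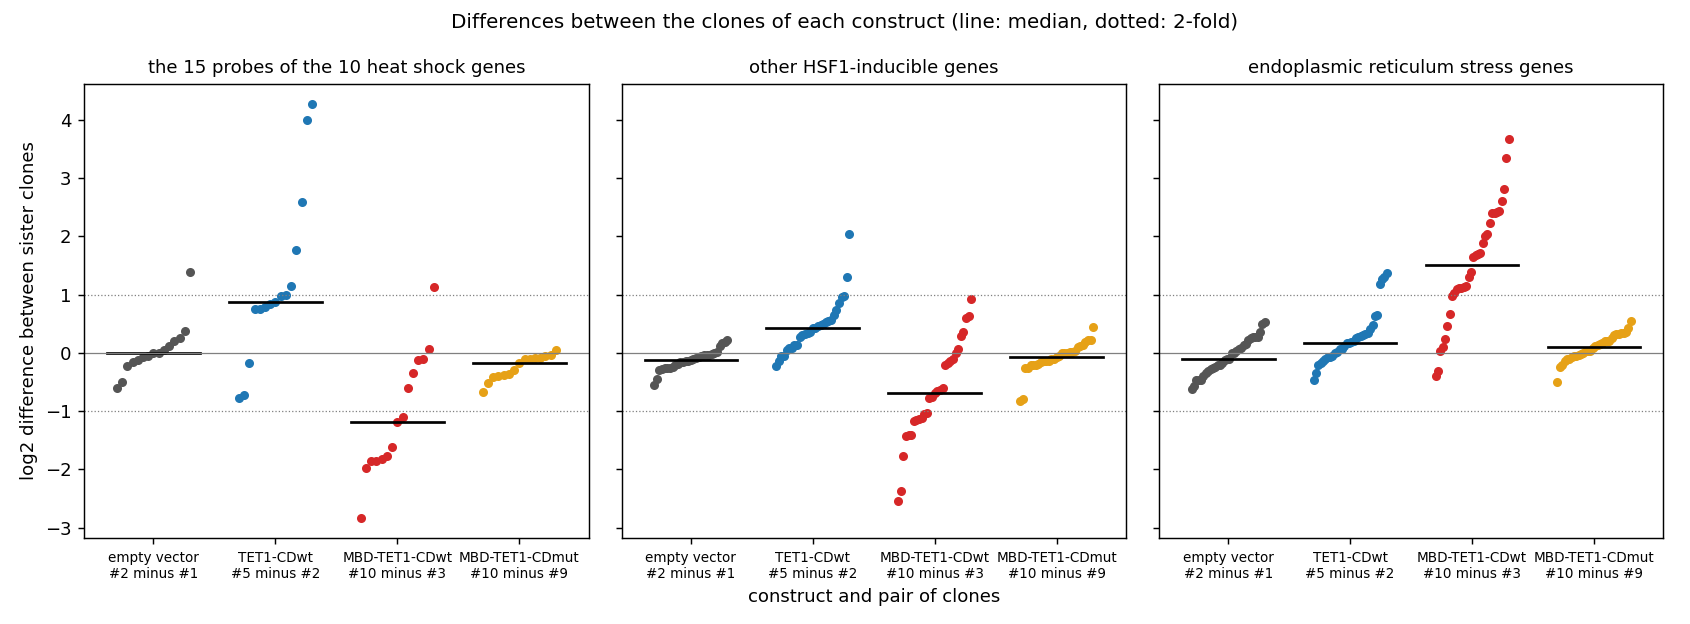
Log2 difference between the 2 clones of each construct, for the 15 probes of the heat shock chaperones, for the probes of other HSF1-inducible genes, and for those of endoplasmic reticulum stress genes. Each point is a probe, the black line is the median, and dotted lines mark 2-fold. In MBD-TET1-CDwt the medians of the HSF1-inducible and the endoplasmic reticulum probes lie at -0.69 and 1.52, on opposite sides of 0.

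Across the 8 arrays, the HSPA1B probe followed HSPH1 (r = 0.96 and 0.97 for its 2 probes), DNAJB1 (0.93), and the HSP90AA1 probes (0.91 to 0.92). HSPA1A had its highest r among these genes with HSPA2 (0.88), then with DNAJB1 (0.68) and HSPH1 (0.64 for each probe). With HSPA1B it was 0.50 and with the first HSPA6 probe 0.08. HSPA1A was well above background on only 5 of the 8 arrays. Between MBD-TET1-CDwt #10 and #3, HSPA1A differed by -1.97 and HSPA2 by 1.14, in opposite directions. Of all other genes tested, those most like HSPA1A were PAQR9 (r = 0.98), POLR2F (0.97), PSMD10 (0.96), LGALS9C (0.96), and GBP1P1 (0.96). Of these, PAQR9, POLR2F, PSMD10, and LGALS9C had ranges of 1.23 or less on the log2 scale. Among those most like the first HSPA6 probe were SPRING1 (0.98), CLIP1 (0.96), RAPGEF2 (0.95), and RHPN2 (0.95), with ranges between 0.41 and 0.79. These are Pearson correlations over 8 arrays of 4 groups that share slides, and they are given as a description.

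The genes beside HSPA1A and HSPA6 did not share their range. SAPCD1, VWA7, VARS1, LSM2, NEU1, EHMT2, and the brighter probe of C2 differed between MBD-TET1-CDwt and empty vector by -0.56 to 0.13 on the log2 scale, and SLC44A4 was above background on 0 arrays. NEU1 was at 1.73 in MBD-TET1-CDwt #3 and between 2.66 and 2.92 on the other 7. Beside HSPA6, the bright probes of SDHC differed between TET1-CDwt and empty vector by -0.28 to -0.16 and those of FCRLB by -0.15 and -0.03. FCGR2A was well above background with 1 of its 2 probes, at 7 arrays, and differed by 0.05. FCGR3A, FCGR2B, FCRLA, CFAP126, PCP4L1, and RPL31P11 were above background on 0 arrays.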

How the data were processed

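RNA of 8 stable cell lines was labeled with Cy3 and hybridized to 1-color Agilent arrays. The deposited values are intensities, the processed signal of Agilent Feature Extraction (version 9.5.1 per the submitters' processing notes, 10.7.3.1 per the file headers) after background subtraction by the authors, with no scaling between arrays. After removal of control spots and of the 213 to 269 outlier spots on each array, log2 intensities of a probe's spots were averaged, and the 75th percentile over probes was subtracted. Probes counted as well above background where this held for over 50% of their spots. Of 34127 probes, 74.5% were named through RefSeq accessions (GRCh38.p14). A model of 4 group means was fitted by limma 3.58.1 (R 4.3.3) to the 22530 probes that both clones of any construct showed well above background, at an adjusted p of 0.05. With 2 clones a group, p-values measure the spread between clones. The fit was tested on simulated data of the comparison MBD-TET1-CDwt minus empty vector (22530 probes). It recovered 10 of 50 probes changed by 1 on the log2 scale and 47 of 50 changed by 2, with 5 false calls. In the simulation every group had the empty vector mean and the same normal spread for a probe. The real clones differed more in some constructs than in others, so these numbers do not measure the power for the genes described here. Standard errors are from that fit, in which slide and construct cannot be separated.

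The genes and lists were chosen with earlier results of these data known. Named genes are the 10 chaperones, genes called by limma or else those with the largest rise and fall in MBD-TET1-CDwt against empty vector of each list, the 5 genes most correlated with HSPA1A and HSPA6, the 5 neighbors with a probe on each side, and the cell type markers. Of these, 1 correlated gene and 1 neighbor are not reported here. Genes named for differences between sister clones were chosen after their values were seen. The alternatives were normexp (offset 50) on the median signal, since the files used hold no mean signal, quantile and median scaling, other filters, fits, and floors, and leaving out each clone. Promoter letters come from the RefSeq promoter table of GRCh38.p14. Python 3.11.15, numpy 2.4.6, pandas 2.3.3, matplotlib 3.10.9, and Biopython 1.88 were used.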

Additional observations from a re-analysis of the deposited data

How the results depend on the processing

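Quantile scaling, median scaling, and dropping the floor left the counts of the 10 genes in every comparison within 1.5 times. A trended and robust fit, fits of the compared groups alone, and other filters bear only on the limma counts of other chaperone and stress probes. These fits and filters left those limma counts unchanged, while median scaling changed that between both fusions to 1 (DNAJA4). Requiring all probes of a gene to pass gave 0 genes lower in MBD-TET1-CDwt minus MBD-TET1-CDmut and 1 higher in MBD-TET1-CDmut minus empty vector. The planned normexp correction moved the dim probes most. It was disturbed on 2 arrays by spots with extreme local background, up to 143523 in empty vector #2 and 12456.5 in MBD-TET1-CDmut #10. The median corrected intensity of dim spots was 1666 and 318 there against 59.0 to 68.2 on the other arrays. It also shifted the median of all probes by up to -0.39. HSPA1A then differed by -1.12 in TET1-CDwt, 1.53 in the active fusion, and -0.33 in MBD-TET1-CDmut (each minus empty vector) and by 1.85 in MBD-TET1-CDwt minus MBD-TET1-CDmut. The first HSPA6 probe differed by 0.060, -1.20, 0.033, and -1.23 in that order. HSPA2 turned to -0.93 in TET1-CDwt and -0.12 for the inactive fusion, and the second HSPA6 probe to -1.08 in TET1-CDwt. The genes at least 2-fold higher numbered 4 in TET1-CDwt, 5 in the active fusion, 1 in the inactive one, and 1 in MBD-TET1-CDwt minus MBD-TET1-CDmut, and those lower 2 in TET1-CDwt and 2 in the active fusion. Between sister clones, this correction gave 4 higher and 5 lower of the 10 genes in empty vector #2, 0 higher in MBD-TET1-CDwt #10, and 3 higher and 2 lower in MBD-TET1-CDmut #10. Of HSF1-inducible genes 3 were higher and 12 lower in empty vector #2, 1 was higher in TET1-CDwt #5, and 1 for the inactive fusion in #10, and of endoplasmic reticulum stress genes 4 were higher and 18 lower in empty vector #2 and 1 higher in MBD-TET1-CDmut #10. With local backgrounds above 10 times the array's median set to that median, a variant chosen after seeing the data, HSPA1A differed by 0.18, 2.84, 0.20, and 2.63, and the first HSPA6 probe by 0.65 in MBD-TET1-CDmut and -0.72 in MBD-TET1-CDwt minus MBD-TET1-CDmut. The genes higher were then 1 in TET1-CDwt, 0 in the inactive fusion, and 1 in MBD-TET1-CDwt minus MBD-TET1-CDmut, with 0 lower in the last. Between sister clones 0 were higher in empty vector #2 and 0 in MBD-TET1-CDwt #10, and 1 HSF1-inducible gene was higher in TET1-CDwt #5. The share of all genes past 2-fold was not computed for the settings of this paragraph. The counts are therefore given only to show how they move, and nothing about these genes is read from them.

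Leaving out each clone in turn, with a lone sample assumed to vary like the other groups, gave 0 to 5 genes higher in TET1-CDwt (0 without #5, 5 without #2, 1 without empty vector #1), 2 to 6 in MBD-TET1-CDwt, and 2 to 4 higher and 1 to 2 lower in MBD-TET1-CDwt minus MBD-TET1-CDmut. The share of all genes was not computed for all of these settings, so nothing about these genes is read from the counts. The second HSPA6 probe ranged from -0.10 to 2.49 in TET1-CDwt. The limma count of other chaperone and stress probes ranged from 0 to 18 between both fusions and from 0 to 11 for MBD-TET1-CDwt against empty vector, both highest without MBD-TET1-CDwt #10. No paired analysis was possible, because the clones were isolated independently and an equal clone number in different constructs marks no pair.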
